A study of Rattus norvegicus with 16 samples.

Results

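Genes of glycolysis, glycogen turnover and pyruvate entry into mitochondria were followed in rat glomeruli, the filtering tufts of the kidney. The set was a list of 35 gene symbols, and members were the genes of the deposited expression table with one of these symbols. This gave 33 genes of 13222. Aldoc and Gapdh are not analysed here.

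The animals were male Wistar rats of about 175 g, 4 in each of 4 groups of 16 libraries in all. Control rats are labelled healthy. PAN rats received puromycin aminonucleoside intravenously, a toxin that injures podocytes and produces a nephrotic syndrome model. PAN rats given pioglitazone, and PAN rats given GQ-16, both described as PPARγ agonists, received the same toxin and a daily drug by oral gavage. A vehicle gavage is also mentioned, but the labels do not say which rats received it, whether control rats were injected, or what the doses were. On day 11 the glomeruli were isolated with a sieve and poly(A) RNA was sequenced. Sieved glomeruli hold several cell types and some tubule fragments, so fewer cells of a type and less RNA per cell cannot be told apart.

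Glycolysis splits glucose into pyruvate in the cytosol, and its pace is set mainly by glucose uptake, hexokinase, phosphofructokinase and pyruvate kinase. Pyruvate is then reduced to lactate by lactate dehydrogenase or oxidised in mitochondria by the pyruvate dehydrogenase complex, which the PDK kinases switch off. Glycogen is built on a glycogenin primer and broken down by phosphorylases. Podocytes are known to draw on glycolysis, while proximal tubule cells rely mostly on mitochondrial oxidation and make glucose.

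Libraries held from 13351137 to 21977663 reads in listed genes, and the lowest read number of any member in any library was 22, for Eno2. Levels are given as CPM, each gene's reads scaled to a common library total, which do not correct for transcript length and so compare rats but not genes. The share of reads from 21 mitochondrially encoded genes was 13.9% to 39.6% in control rats and 5.98% to 10.8% in PAN rats. It was 8.77% to 19.4% after pioglitazone and 6.76% to 31.4% after GQ-16. A second scaling, by the median ratio of each library's reads to a reference, was therefore set beside the deposited one. Over all genes it moved the median of the log2 change, PAN minus control, from 0.28 to -0.003. The sample titles carry numbers whose meaning the labels do not give. A number of 25 or higher was carried by 3 of 4 PAN rats, replicates 1 to 3, by replicate 4 of each drug group and by 0 control rats.

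In PAN glomeruli 6 of the 33 members were higher than in control, and 0 were lower. They were Hk2, which traps glucose in the cell, Pfkfb3, which makes the activator of phosphofructokinase, Pkm, the pyruvate kinase gene, Ldha, which forms lactate, Gyg1, the glycogen primer, and Pygb, a glycogen phosphorylase. Means rose from 1.32-fold for Pygb to 2.40-fold for Pfkfb3. A change was called at a limma Benjamini-Hochberg adjusted p-value under 0.05 over all genes. The 6 called members are 18.2% of the members, against 22.3% of all genes called and 21.7% called higher, so the members' share was near the background. The same 6 members had no overlap between the 4 control and the 4 PAN rats, a pattern shown by 23.3% of all genes. With median-ratio scaling 5 members had none, beside 15.8% of all genes: all PAN rats lay above the control range for Hk2, Pfkfb3 and Gyg1 and below it for Ldhb and Gys1.

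Of the 33 members, 25 had a log2 change above 0 as deposited and 12 with median-ratio scaling, where 13 members changed sign. Their median log2 change was 0.20 as deposited, beside 0.28 for all genes, and -0.10 with median-ratio scaling, beside -0.003. With median-ratio scaling 3 members were called, beside 8.63% of all genes. Pfkfb3 and Gyg1 were higher and Ldhb, the heart-type lactate dehydrogenase gene, was lower. The 27 members not called as deposited had log2 changes from -0.68 to 0.55 and limma adjusted p-values from 0.0603 to 0.948. The median of the members' 95% intervals, not adjusted for the number of genes, reached 0.38 to either side on the log2 scale. In simulated data of this comparison 9% of genes with a log2 change of 0.5 were called, and 65% of those with a change of 1.

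The 6 calls did not hold up in every subset of rats. Leaving out control replicate 2 or control replicate 3 left 1 called member, Gyg1, while the share of all genes called was 6.50% and 6.34%. Leaving out PAN replicate 1 left 2, beside 7.93% of all genes. With the title number of 25 or higher as a covariate 0 members were called, beside 2.97% of all genes.

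**Figure D1:**
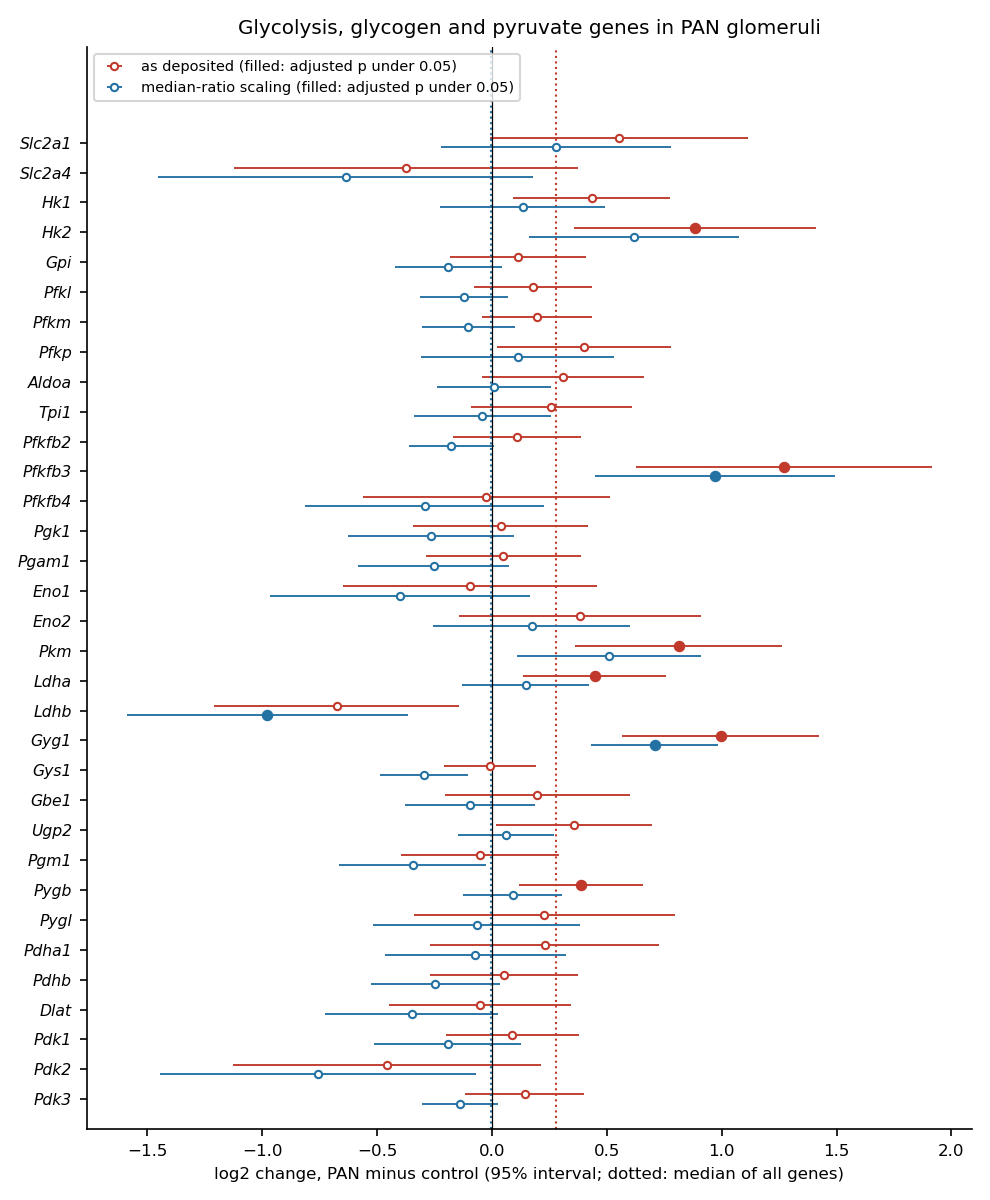
Log2 change of each of the 33 members between PAN and control rats on the log2(CPM + 1) scale, with its 95% interval from limma, as deposited and with median-ratio scaling. Filled points have an adjusted p under 0.05, and dotted lines mark the median of all genes, 0.28 as deposited. Pfkfb3 and Gyg1 are filled under both scalings and Ldhb with median-ratio scaling only.

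Pfkfb3 (ENSRNOG00000018911) encodes the enzyme that makes fructose 2,6-bisphosphate, the strongest activator of phosphofructokinase. It measured 103, 51.9, 46.1 and 68.8 CPM in the control rats and 229, 112, 144 and 163 CPM in the PAN rats. Every PAN rat was above every control rat, although PAN replicate 2 and control replicate 1 lay close. The means were 67.5 ± 25.8 and 162 ± 49.7 CPM (SD, n = 4), a 2.40-fold difference. On the log2 scale this was 1.27 (SE 0.30, limma adjusted p 0.0116), or 0.97 with median-ratio scaling (SE 0.24, limma adjusted p 0.0243). The call was lost without control replicate 2 (limma adjusted p 0.0509) or control replicate 3 (limma adjusted p 0.0512).

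Pfkfb2 and Pfkfb4 encode other enzymes of the same family and were not called. Pfkfb2 was 18.2 ± 2.04 CPM in controls and 19.7 ± 1.98 CPM in PAN. Pfkfb4 was 8.49 ± 1.77 CPM in controls and 8.31 ± 1.74 CPM in PAN.

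Gyg1 (ENSRNOG00000011146) encodes glycogenin, the protein on which a new glycogen particle is started. Its control values were 21.7, 11.9, 12.9 and 17.9 CPM, and its PAN values were 31.4, 37.7, 29.3 and 31.1 CPM. The groups did not overlap, and the 4 PAN rats lay in a narrow band. The means were 16.1 ± 4.56 and 32.4 ± 3.65 CPM (SD, n = 4), a 2.01-fold difference. The rise was 0.995 on a log2 scale (SE 0.20, limma adjusted p 0.00467), or 0.71 with median-ratio scaling (SE 0.13, limma adjusted p 0.00455). Gyg1 was called with each of the 8 rats left out in turn, the only member for which this held. With the title number as a covariate its log2 change was 0.79 (limma adjusted p 0.0980).

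The other 4 genes of glycogen synthesis were not called under either scaling. Gys1, glycogen synthase of muscle type, was 17.7 ± 1.04 CPM in controls and 17.6 ± 0.524 CPM in PAN, the member with the smallest spread on the log2 scale in both groups. Its log2 difference was -0.0088 as deposited, -0.30 with median-ratio scaling, without overlap (limma adjusted p 0.0526), and -0.34 with quantile normalization, where it was called lower (limma adjusted p 0.0318) beside 8.59% of all genes called. Gbe1, the branching enzyme, was 25.6 ± 6.36 and 29.0 ± 2.93 CPM. Ugp2, which makes UDP-glucose, was 48.3 ± 8.62 and 61.6 ± 5.60 CPM. Pgm1, which interconverts glucose phosphates, was 31.7 ± 5.08 and 30.7 ± 6.48 CPM.

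The upstream sequences of Pfkfb3, Gyg1, Ldha and Ldhb are shown because these are the members called under both scalings and the pair of lactate dehydrogenase genes, each called under one scaling. Each is the 250 bases before the annotated start in RefSeq (build GRCr8, while the reads were counted against Rnor_6.0), 5′ to 3′ on the gene's strand. Capitals mark ACGTG and GCGTG on either strand, the core letters to which the hypoxia-inducible factors bind. CACGTG, the E-box, holds ACGTG once on each strand and so counts as 2 overlapping matches.
Pfkfb3: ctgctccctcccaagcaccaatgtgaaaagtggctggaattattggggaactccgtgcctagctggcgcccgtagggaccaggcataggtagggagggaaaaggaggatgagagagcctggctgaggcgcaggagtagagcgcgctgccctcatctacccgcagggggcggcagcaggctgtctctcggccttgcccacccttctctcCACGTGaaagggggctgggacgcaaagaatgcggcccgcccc
Gyg1: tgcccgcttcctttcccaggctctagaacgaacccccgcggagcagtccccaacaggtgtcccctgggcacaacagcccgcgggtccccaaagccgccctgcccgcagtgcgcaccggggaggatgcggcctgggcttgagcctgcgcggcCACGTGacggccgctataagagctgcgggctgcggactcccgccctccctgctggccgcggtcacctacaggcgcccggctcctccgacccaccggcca
Ldha: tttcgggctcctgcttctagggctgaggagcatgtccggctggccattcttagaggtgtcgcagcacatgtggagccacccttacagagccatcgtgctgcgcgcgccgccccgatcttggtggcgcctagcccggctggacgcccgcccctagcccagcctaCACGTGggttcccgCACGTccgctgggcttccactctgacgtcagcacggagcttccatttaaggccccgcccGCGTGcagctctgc
Ldhb: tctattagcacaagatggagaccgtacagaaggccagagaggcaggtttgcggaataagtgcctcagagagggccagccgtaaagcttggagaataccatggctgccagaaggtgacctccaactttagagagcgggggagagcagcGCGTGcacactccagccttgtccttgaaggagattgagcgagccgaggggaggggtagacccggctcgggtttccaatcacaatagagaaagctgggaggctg
The Pfkfb3 window lies at chr17:71944683-71944932 on the plus strand and the Gyg1 window at chr2:104582778-104583027 on the minus strand. The Ldha window lies at chr1:106507842-106508091 on the plus strand and the Ldhb window at chr4:177177409-177177658 on the minus strand.

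Pfkfb3 and Gyg1 each had a single CACGTG and no other match, so 2 matches each. Ldha had 4 matches, from 1 CACGTG, 1 further ACGTG and 1 GCGTG. Ldhb had 1 GCGTG and no CACGTG. The windows of Hk2 and Pkm, which were also called, had 0 matches, and that of Pygb had 1 ACGTG. RefSeq windows were found for 31 of 33 members, 35 windows in all, since 3 genes had more than one start. A core was present in 74.3% of the member windows, in 54.4% of the 10717 windows of genes in the expression table and in 36.7% of all 33469 windows. ACGTG was present in 48.6%, 21.5% and 16.6% of these, GCGTG in 45.7%, 43.4% and 25.9%, and CACGTG in 14.3%, 7.98% and 5.59%. The mean GC content was 61.6%, 59.8% and 52.2%. A match describes letters in a window and is not a bound site.

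Glucose enters these cells through transporters such as GLUT1, encoded by Slc2a1, and the insulin-responsive GLUT4, encoded by Slc2a4. Neither gene was called. Slc2a1 was 11.9, 8.4, 6.5 and 5.9 CPM in controls and 19.9, 11.3, 9.5 and 9.9 CPM in PAN. PAN replicate 1 was the highest of the 8 rats, and the other PAN rats overlapped the control range. Its log2 difference was 0.55 (SE 0.27, limma adjusted p 0.123), or 0.28 with median-ratio scaling. The deposited value ran from 0.33 to 0.73 with a rat left out and was 0.12 with the title number as a covariate. Slc2a4 was 8.33 ± 2.19 CPM in controls and 6.86 ± 3.99 CPM in PAN, where it was the member with the largest spread on the log2 scale.

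Hexokinase adds the phosphate that keeps glucose in the cell. Hk2 (ENSRNOG00000006116) was 8.8, 6.1, 4.0 and 7.1 CPM in controls and 21.3, 11.0, 10.5 and 9.5 CPM in PAN. The groups did not overlap, and PAN replicate 1 stood well above the other PAN rats. The means were 6.49 ± 2.03 and 13.1 ± 5.52 CPM (SD, n = 4), a 2.02-fold difference. This was 0.89 on a log2 scale (SE 0.25, limma adjusted p 0.0238), or 0.62 with median-ratio scaling, where it was not called (limma adjusted p 0.0869). It also lost its call without control replicate 2 or 3 or PAN replicate 1 (limma adjusted p 0.0736, 0.0949 and 0.0838). Hk1, the broadly expressed hexokinase, was 93.2 ± 6.97 CPM in controls and 129 ± 30.5 CPM in PAN and was not called.

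The 6 members between hexokinase and the triose phosphates all had log2 changes above 0 as deposited, and 2 of 6 with median-ratio scaling, but 0 were called. Gpi, the glucose phosphate isomerase, was 251 ± 34.5 CPM in controls and 271 ± 23.6 CPM in PAN. Of the phosphofructokinase genes, liver-type Pfkl was 90.8 ± 14.8 and 102 ± 10.8 CPM and muscle-type Pfkm was 60.2 ± 6.95 and 68.9 ± 3.08 CPM. Platelet-type Pfkp was 12.8, 14.7, 13.1 and 14.8 CPM in controls and 23.0, 22.1, 18.8 and 12.3 CPM in PAN. PAN replicates 1 to 3 lay above all control rats, and PAN replicate 4 lay below them. Its log2 difference was 0.40 (limma adjusted p 0.103), or 0.11 with median-ratio scaling. Aldoa, an aldolase, was 638 ± 105 and 785 ± 59.6 CPM, and Tpi1, the triose phosphate isomerase, was 114 ± 13.7 and 136 ± 16.3 CPM.

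In the second part of the pathway Pkm (ENSRNOG00000011329) was the only called member of 5. Pyruvate kinase makes pyruvate and ATP, and a gene-level count does not separate the PKM1 and PKM2 splice forms. Pkm was 177, 152, 141 and 176 CPM in controls and 435, 271, 255 and 213 CPM in PAN. The groups did not overlap, and PAN replicate 1 was the highest by far. The means were 161 ± 18.1 and 294 ± 97.6 CPM (SD, n = 4), a 1.82-fold difference. Pkm thus rose by 0.81 on a log2 scale (SE 0.21, limma adjusted p 0.0178), or by 0.51 with median-ratio scaling, where it was not called (limma adjusted p 0.104). Its call was also lost without control replicate 2 or 3 or PAN replicate 1 (limma adjusted p 0.0614, 0.0675 and 0.0633).

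The other 4 members of the lower pathway were not called. Pgk1, which makes the first ATP of the pathway, was 240 ± 34.7 CPM in controls and 248 ± 51.1 CPM in PAN. Pgam1, the mutase, was 230 ± 26.8 and 239 ± 41.0 CPM. Eno1, the common enolase, was 639 ± 106 and 615 ± 214 CPM, and neuron-type Eno2 was 2.12 ± 0.575 and 3.12 ± 1.18 CPM. Several of these genes have near-identical processed pseudogenes, and how reads with several matches were counted is not given in the sources used here, so their levels are uncertain.

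Lactate dehydrogenase is a tetramer of A and B subunits, and A-rich forms are known for lactate production and B-rich forms for lactate use. Ldha (ENSRNOG00000013009) was 145, 115, 140 and 153 CPM in controls and 259, 181, 155 and 171 CPM in PAN. The groups did not overlap, but the lowest PAN rat and the highest control rat were almost level. The means were 138 ± 16.3 and 192 ± 46.5 CPM (SD, n = 4), a 1.39-fold difference. Ldha rose by 0.45 on a log2 scale (SE 0.15, limma adjusted p 0.0415), or by 0.29 without PAN replicate 1. The value with median-ratio scaling was 0.15 (limma adjusted p 0.475), and the call was also lost without control replicate 2 or 3 or PAN replicate 1 or 2.

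Ldhb (ENSRNOG00000013000) was on average lower in PAN. Its control rats lay together at 407, 349, 403 and 388 CPM, and its PAN rats spread over 145, 208, 285 and 393 CPM. PAN replicates 1 to 3 were below all control rats, and PAN replicate 4 was inside the control range. The means were 387 ± 26.7 and 258 ± 107 CPM (SD, n = 4). The log2 difference of -0.68 (SE 0.25, limma adjusted p 0.0616) was not called as deposited. Without PAN replicate 1 it was -0.43 (limma adjusted p 0.205). Without PAN replicate 4 it was -0.91 and called lower (limma adjusted p 0.0152), beside 24.4% of all genes called. With median-ratio scaling the PAN rats lay at 126 to 374 and the control rats at 390 to 495 scaled CPM, without overlap, and the log2 change was -0.98 (SE 0.29, limma adjusted p 0.0475). With the title number as a covariate the deposited log2 change was -0.21 (limma adjusted p 0.642). Between PAN replicate 4, the single PAN rat with a title number under 25, and the 4 controls it was 0.027.

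The ratio of Ldhb to Ldha within each rat hardly depends on library scaling. Its log2 value was 1.49, 1.59, 1.52 and 1.34 in control and -0.83, 0.20, 0.88 and 1.19 in PAN. In PAN replicate 1 Ldha was the higher of the pair in reads, and in each of the other 15 rats Ldhb was. The groups did not overlap. The difference was -1.12 (-0.73 without PAN replicate 1), with an exact permutation p of 0.0286, the smallest that 70 assignments of 8 rats allow, and 0.105 after Benjamini-Hochberg adjustment over 11 ratios. The ratio was 0.30 to 1.31 with pioglitazone and 0.41 to 1.29 with GQ-16, in each case below every control rat and overlapping the PAN rats widely. In each injured group the rats with a title number of 25 or higher had the lowest ratios. They were PAN replicates 1 to 3 and, at 0.30 and 0.41, replicate 4 of each drug group. No control rat carries such a number, and its part in the ratio was not tested.

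The other 10 ratios between enzymes of a family were examined in the same way. Pfkfb2 to Pfkfb3 was lower in PAN by 1.16 and Pfkfb4 to Pfkfb3 by 1.30 on the log2 scale, each without overlap and with the same exact p of 0.0286 and adjusted p of 0.105. These repeat the rise of Pfkfb3 and are no separate evidence. The other 8 ratios had exact permutation p-values from 0.143 to 0.857. None of the 11 ratios passed the adjusted test, and 3 of 11 reached the smallest p this design allows.

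**Figure D2:**
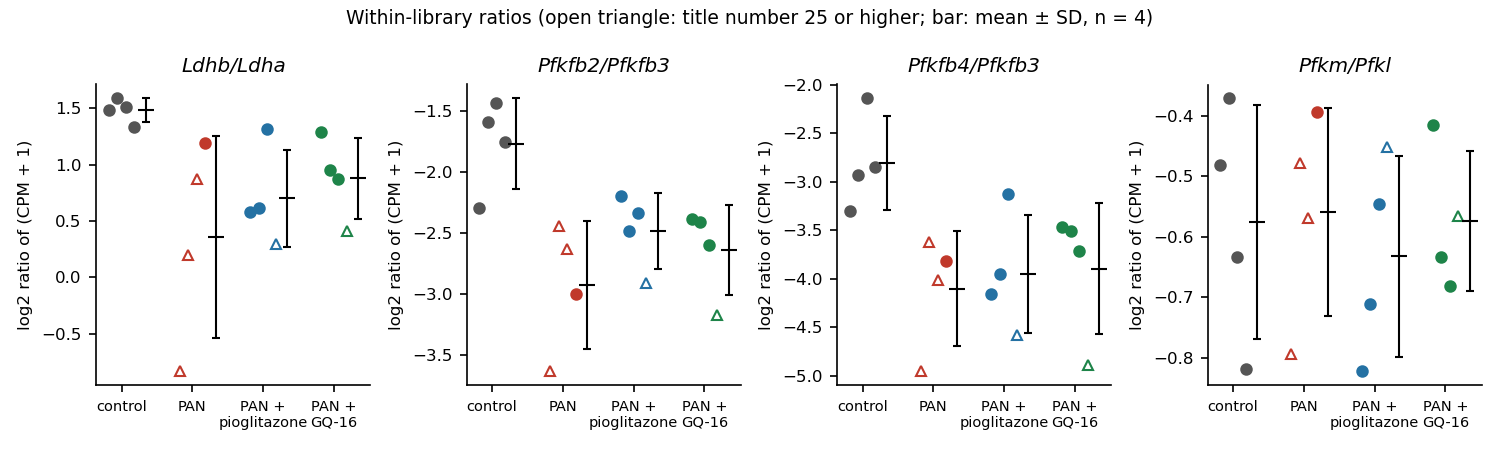
Log2 ratio of (CPM + 1) for Ldhb to Ldha, Pfkfb2 to Pfkfb3, Pfkfb4 to Pfkfb3 and Pfkm to Pfkl in each of the 16 rats, by group, with the mean and SD of 4 rats and open triangles for title numbers of 25 or higher. Ldhb to Ldha lies between 1.34 and 1.59 in control and between -0.83 and 1.19 in PAN.

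Glycogen is broken down by phosphorylases. Pygb (ENSRNOG00000007583), the brain-type enzyme, was 41.4, 36.3, 34.6 and 38.2 CPM in controls and 58.3, 50.005, 47.8 and 42.8 CPM in PAN. The groups did not overlap, though PAN replicate 4 was close to control replicate 1. Pygb rose by 0.39 on a log2 scale (SE 0.13, limma adjusted p 0.0418), or by 0.091 with median-ratio scaling (limma adjusted p 0.574). The call was lost without control replicate 2 or 3 or any 1 of PAN replicates 1 to 3. Pygl, the liver-type enzyme, was 43.8 ± 16.5 CPM in controls and 49.7 ± 9.29 CPM in PAN.

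**Figure D3:**
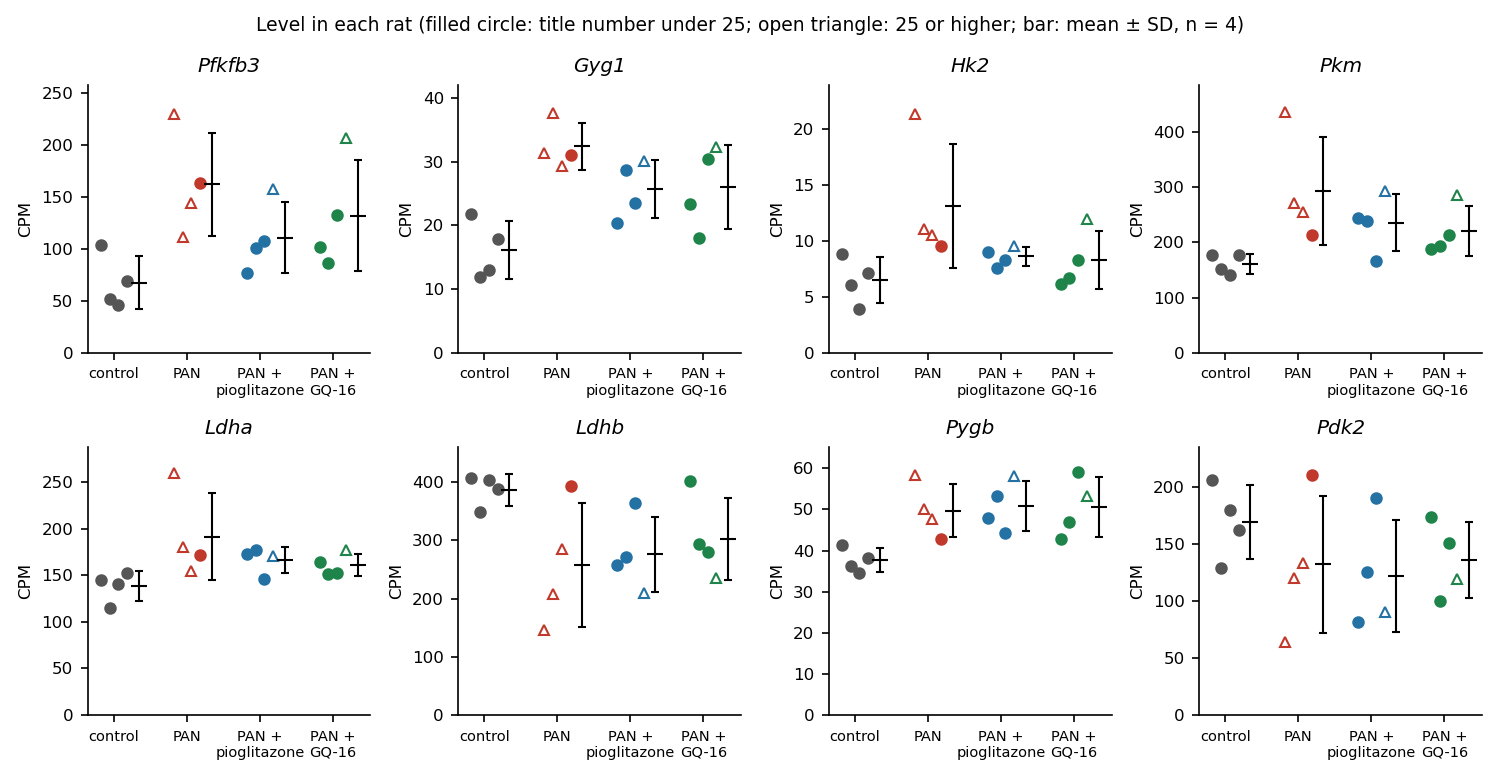
CPM of 8 members in each rat, by group, with the mean and SD of 4 rats on axes that start at 0. Open triangles are rats whose title number is 25 or higher. Pfkfb3 lies between 46.1 and 103 CPM in controls and between 112 and 229 CPM in PAN.

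The pyruvate dehydrogenase complex commits pyruvate to the citric acid cycle, and 0 of its 3 members were called. Pdha1, the catalytic alpha subunit, was 254, 144, 165 and 174 CPM in controls and 196, 200, 188 and 271 CPM in PAN. The groups overlapped widely. The log2 difference was 0.23 as deposited (limma adjusted p 0.456) and -0.072 with median-ratio scaling. Pdhb, the beta subunit, was 97.4 ± 15.96 and 101 ± 16.1 CPM, and Dlat, the acetyltransferase core, was 68.8 ± 9.26 and 67.3 ± 17.1 CPM.

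The PDK kinases phosphorylate and inactivate this complex, and 0 of 3 were called. Pdk2 was 206, 129, 180 and 163 CPM in controls and 64.1, 121, 133 and 210.5 CPM in PAN. PAN replicate 1 was the lowest and PAN replicate 4 the highest of the 8 rats. The log2 difference was -0.46 (limma adjusted p 0.269), or -0.76 with median-ratio scaling (limma adjusted p 0.155). With a rat left out the deposited difference ran from -0.72 to -0.15. Pdk1 was 12.2 ± 1.70 and 13.02 ± 0.714 CPM, and Pdk3 was 12.1 ± 1.16 and 13.4 ± 1.09 CPM.

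Members differed in how far rats of a group spread. The median SD of log2(CPM + 1) over the members was 0.234 for control, 0.247 for PAN, 0.252 for pioglitazone and 0.264 for GQ-16. Pfkfb3 had the largest spread in control, with an SD of 0.511, and with GQ-16, with 0.544. Slc2a4 had the largest in PAN, with 0.791, and Pfkfb4 with pioglitazone, with 0.616.

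The PAN rats differed in their tubule RNA. The summed level of 14 proximal tubule markers was 4372, 9367, 10189 and 19628 CPM in PAN replicates 1 to 4. Within these 4 rats 3 of 33 members, Gpi, Ldhb and Pdk2, had the same order as the markers, beside 7.74% of all genes. Ldhb was at 145, 208, 285 and 393 CPM and Pdk2 at 64.1, 121, 133 and 210.5 CPM. The reverse order was seen for 6 members, Hk1, Hk2, Pfkl, Pfkp, Pkm and Pygb, beside 15.7% of all genes, so both shares were near the background. Summed podocyte markers, from 12093 to 8351 CPM, and leukocyte markers, from 1659 to 736 CPM, also fell in this reverse order over PAN replicates 1 to 4. Hk1, for one, was at 165, 133, 127 and 90.2 CPM. The other 24 members had neither order, and the part of tubule, podocyte or leukocyte RNA in these values was not tested.

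**Figure D4:**
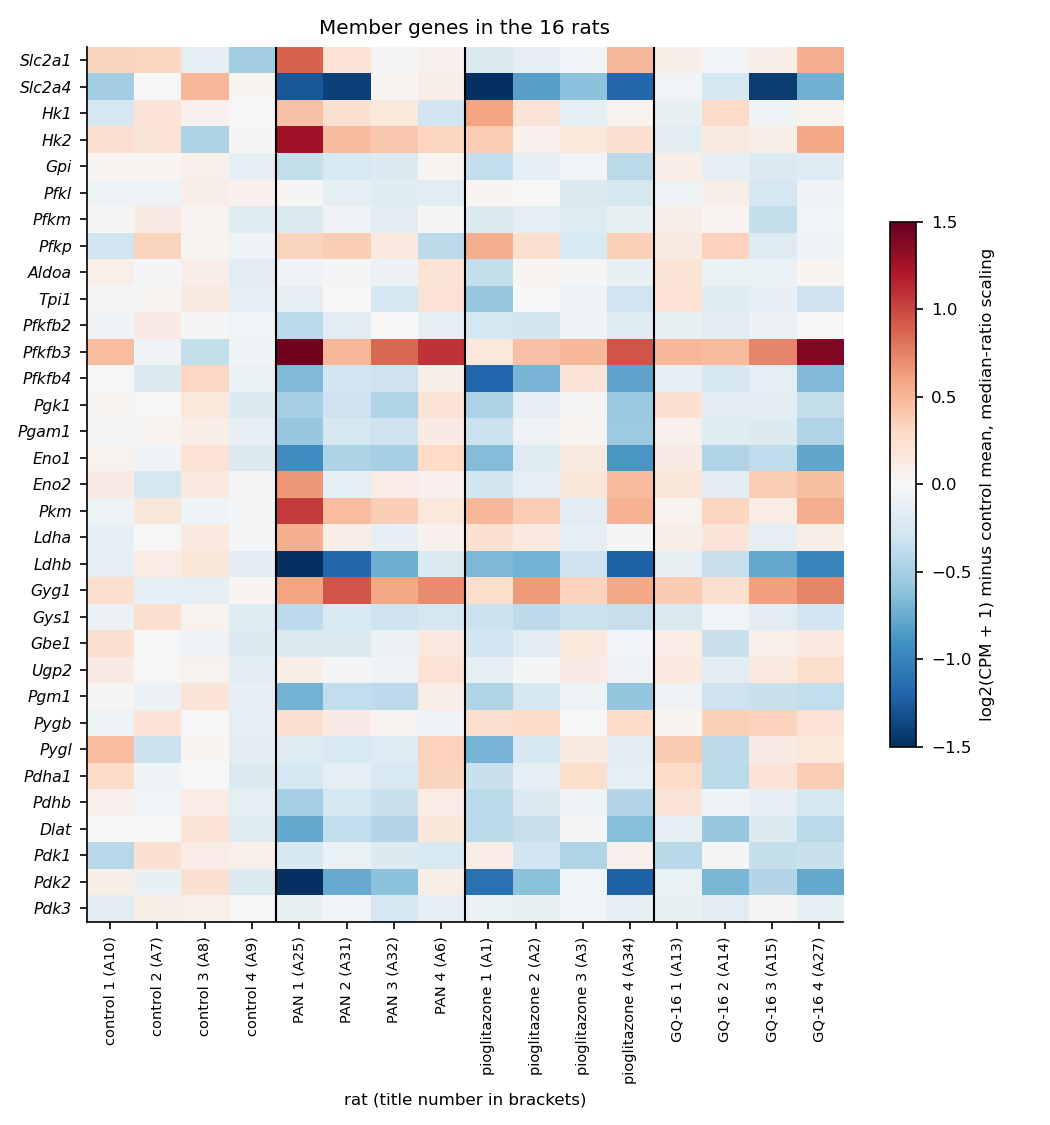
Log2(CPM + 1) of the 33 members in the 16 rats with median-ratio scaling, as the difference from the control mean, with colours that saturate at 1.5 to either side and the sample title in brackets. Ldhb and Pdk2 are darkest blue in PAN replicate 1 and near the control mean in PAN replicate 4, and Pfkfb3 and Gyg1 are red in all 4 PAN rats.

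Cell type markers also differed between the groups. The summed level of 8 mesangium and smooth muscle markers was 294 to 800 CPM in controls and 1618 to 2705 CPM in PAN, and 7 of 8 were called higher. The 14 podocyte markers summed to 2983 to 10487 CPM in controls and 8351 to 12093 CPM in PAN, with 4 called higher. With the podocyte score as a covariate 1 member, Gyg1, was called, beside 5.94% of all genes, at a log2 change of 0.58 (limma adjusted p 0.0115), and Pfkfb3 was at 0.64 (limma adjusted p 0.0703). Of the other lists, 5 of 10 distal nephron markers were called lower, and 2 of 9 endothelial, 1 of 6 parietal epithelial and 4 of 9 leukocyte markers were called higher. Of all genes 21.7% were called higher and 0.522% lower. Without control replicate 2 or without control replicate 3, 0 podocyte, distal nephron, parietal epithelial and leukocyte markers were called, 1 endothelial marker was, and 6 of the mesangium and smooth muscle markers were. In these fits 6.50% and 6.34% of all genes were called. With median-ratio scaling 1 podocyte, 0 leukocyte and 4 distal nephron markers were called, beside 7.12% of all genes called higher and 1.51% lower. Proximal tubule and erythrocyte markers had 0 calls of 14 and of 5. Of 16 striated muscle markers 3 could be read, Myom2, Synpo2l and Pygm, and all 3 were called higher, with sums of 4.77 to 25.4 CPM in controls and 369 to 582 CPM in PAN, while the other 13 are not analysed here. No marker that could be read was at or under 3 reads in any library. The part of other cell types in the changes of the members was not tested.

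Genes outside the set were read from 5 lists of the same pathways. Their counts stand beside 21.7% of all genes called higher and 0.522% lower as deposited, and 7.12% and 1.51% with median-ratio scaling. Of 20 other genes of glycolysis and glucose transport 6 were called higher, 0 were called lower, and 3 were called higher with median-ratio scaling. Eno3, muscle-type enolase, rose from 8.05 to 30.3 CPM, by 1.69 on a log2 scale (limma adjusted p 0.00386) and by 1.41 with median-ratio scaling. Slc2a3, the GLUT3 transporter, rose from 1.76 to 3.96 CPM, and Adpgk, an ADP-dependent glucokinase, from 22.0 to 38.4 CPM, with limma adjusted p-values of 0.00754 and 0.0140. Both were also called with median-ratio scaling.

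Of 18 other glycogen genes 3 were called higher, 0 were called lower, and 2 were called higher with median-ratio scaling. Ppp1r3c, which brings protein phosphatase 1 to glycogen, was 3.28, 1.78, 1.49 and 2.09 CPM in controls and 7.34, 7.97, 5.78 and 6.82 CPM in PAN. The groups lay far apart. Its log2 change was 1.36 (SE 0.17, limma adjusted p 0.000327), and it was also called with the title number as a covariate (limma adjusted p 0.00231). Phka1, a phosphorylase kinase subunit, rose from 17.3 to 23.9 CPM as deposited (limma adjusted p 0.0400). Pygm, the muscle phosphorylase, was at 5.23 CPM in controls and 187 CPM in PAN. It is also one of the striated muscle markers described above, so both counts hold the same gene.

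Of 16 other pyruvate and lactate genes 3 were called higher and 1 was called lower, against 1 of each with median-ratio scaling. Pdk4, the fourth PDK kinase, rose from 2.96 to 13.99 CPM (limma adjusted p 0.0168), but PAN replicate 1 was at 35.6 CPM and the other 3 PAN rats at 6.20 to 7.88 CPM. Slc16a7, the lactate carrier MCT2, fell from 22.0 to 11.0 CPM (limma adjusted p 0.0192), with PAN replicate 1 lowest at 5.38 CPM. Me2, mitochondrial malic enzyme, rose from 10.2 to 15.6 CPM as deposited (limma adjusted p 0.00296), but was not called with median-ratio scaling.

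Of 6 gluconeogenesis genes 1 was called, Pck2, mitochondrial PEP carboxykinase, which rose from 40.2 to 61.3 CPM as deposited (limma adjusted p 0.0209). With median-ratio scaling 0 genes of this list were called. Of 24 regulators and hypoxia genes 2 were called higher as deposited, and 1 with median-ratio scaling. Adm, adrenomedullin, a known hypoxia target, rose from 20.2 to 119 CPM, which is 2.82 on a log2 scale (limma adjusted p 0.0014), and Ddit4 from 25.05 to 34.3 CPM (limma adjusted p 0.0453). Hif1a and 21 others of that list were not called. The median log2 changes of the 5 lists ran from -0.19 for gluconeogenesis to 0.29 for regulators and hypoxia genes, beside 0.28 for all genes. Without control replicate 2 the 5 lists had 2, 2, 1, 0 and 1 calls in the order given, and without control replicate 3 or without PAN replicate 1 they had 2, 2, 2, 0 and 1. Without control replicate 1 they had 7, 6, 4, 1 and 5, while 37.5% of all genes were called.

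The comparison of each drug group with PAN asks whether the drug altered the members in injured glomeruli. Neither drug gave a called member. With pioglitazone 0 of 33 members were called, beside 0% of all genes, and at an unadjusted limma p under 0.05 there were also 0 members, beside 3.74% of all genes. With GQ-16 0 of 33 were called, beside 0.0151% of all genes, and 1 member, Hk2, had an unadjusted limma p under 0.05, beside 8.27% of all genes. These comparisons share the 4 PAN rats. Title numbers of 25 or higher were more frequent in PAN than in either drug group, so the title number and the drug are partly mixed.

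Hk2 was 9.0, 7.6, 8.3 and 9.5 CPM with pioglitazone and 6.2, 6.7, 8.3 and 11.9 CPM with GQ-16. Of the pioglitazone rats 3 lay below all PAN rats and replicate 4 was level with the lowest one, and GQ-16 replicate 4 was inside the PAN range. The log2 change from PAN was -0.49 with pioglitazone (95% interval -1.01 to 0.04, limma adjusted p 0.916) and -0.57 with GQ-16 (95% interval -1.10 to -0.05, limma adjusted p 0.561). With a rat left out these ran from -0.60 to -0.24 and from -0.75 to -0.33. With the title number as a covariate they were -0.26 and -0.35.

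Pfkfb3 was 77.1, 101, 107 and 158 CPM with pioglitazone and 102, 86.5, 133 and 207 CPM with GQ-16. Both groups overlapped PAN, and their means of 111 ± 33.9 and 132 ± 53.3 CPM lay between control and PAN. The log2 change from PAN was -0.54 with pioglitazone (95% interval -1.19 to 0.10) and -0.32 with GQ-16 (95% interval -0.97 to 0.32). With a rat left out these ran from -0.73 to -0.36 and from -0.57 to -0.14. With median-ratio scaling the GQ-16 value was -0.20 (95% interval -0.72 to 0.32). With the title number as a covariate the deposited change was -0.27 with pioglitazone and -0.053 with GQ-16.

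Gyg1 was 20.3, 28.7, 23.5 and 30.1 CPM with pioglitazone and 23.3, 18.01, 30.3 and 32.3 CPM with GQ-16. In both groups some rats were near or within the PAN range. Pioglitazone replicate 1 and GQ-16 replicate 2 lay inside the control range. Pioglitazone replicate 3 and GQ-16 replicate 1 lay just above it. The log2 change from PAN was -0.33 with either drug (95% interval -0.76 to 0.09 for both), and with median-ratio scaling it was -0.25 with pioglitazone and -0.21 with GQ-16 (95% interval -0.49 to 0.064). With the title number as a covariate the deposited Gyg1 change was -0.19 with pioglitazone and -0.20 with GQ-16. Pkm differed from PAN by -0.38 with GQ-16 (95% interval -0.83 to 0.07), or by -0.25 with median-ratio scaling. The deposited Pkm value ran from -0.52 to -0.17 with a rat left out and was -0.13 with the title number as a covariate. For Gyg1 and Pkm the intervals as deposited hold both no change and most of the distance between PAN and control.

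Log2 changes from PAN were below 0 for 30 of 33 members with pioglitazone and for 26 of 33 with GQ-16, and with median-ratio scaling for 20 and 12. Without GQ-16 replicate 2, 18 members were above 0 with GQ-16 and their median was 0.0067. The median over members was -0.12 with pioglitazone, beside -0.093 for all genes, and -0.086 with GQ-16, beside -0.11. With median-ratio scaling these were -0.040 beside -0.015 and 0.037 beside 0.0060. With pioglitazone 0 members had no overlap with PAN, beside 2.76% of all genes. With GQ-16 1 member had none, beside 3.62% of all genes: Pdk1, at 9.998, 11.57, 11.54 and 11.48 CPM, below the PAN rats at 13.3, 13.8, 12.8 and 12.2 CPM. With median-ratio scaling its groups overlapped, and its log2 change went from -0.21 to -0.089.

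**Figure D5:**
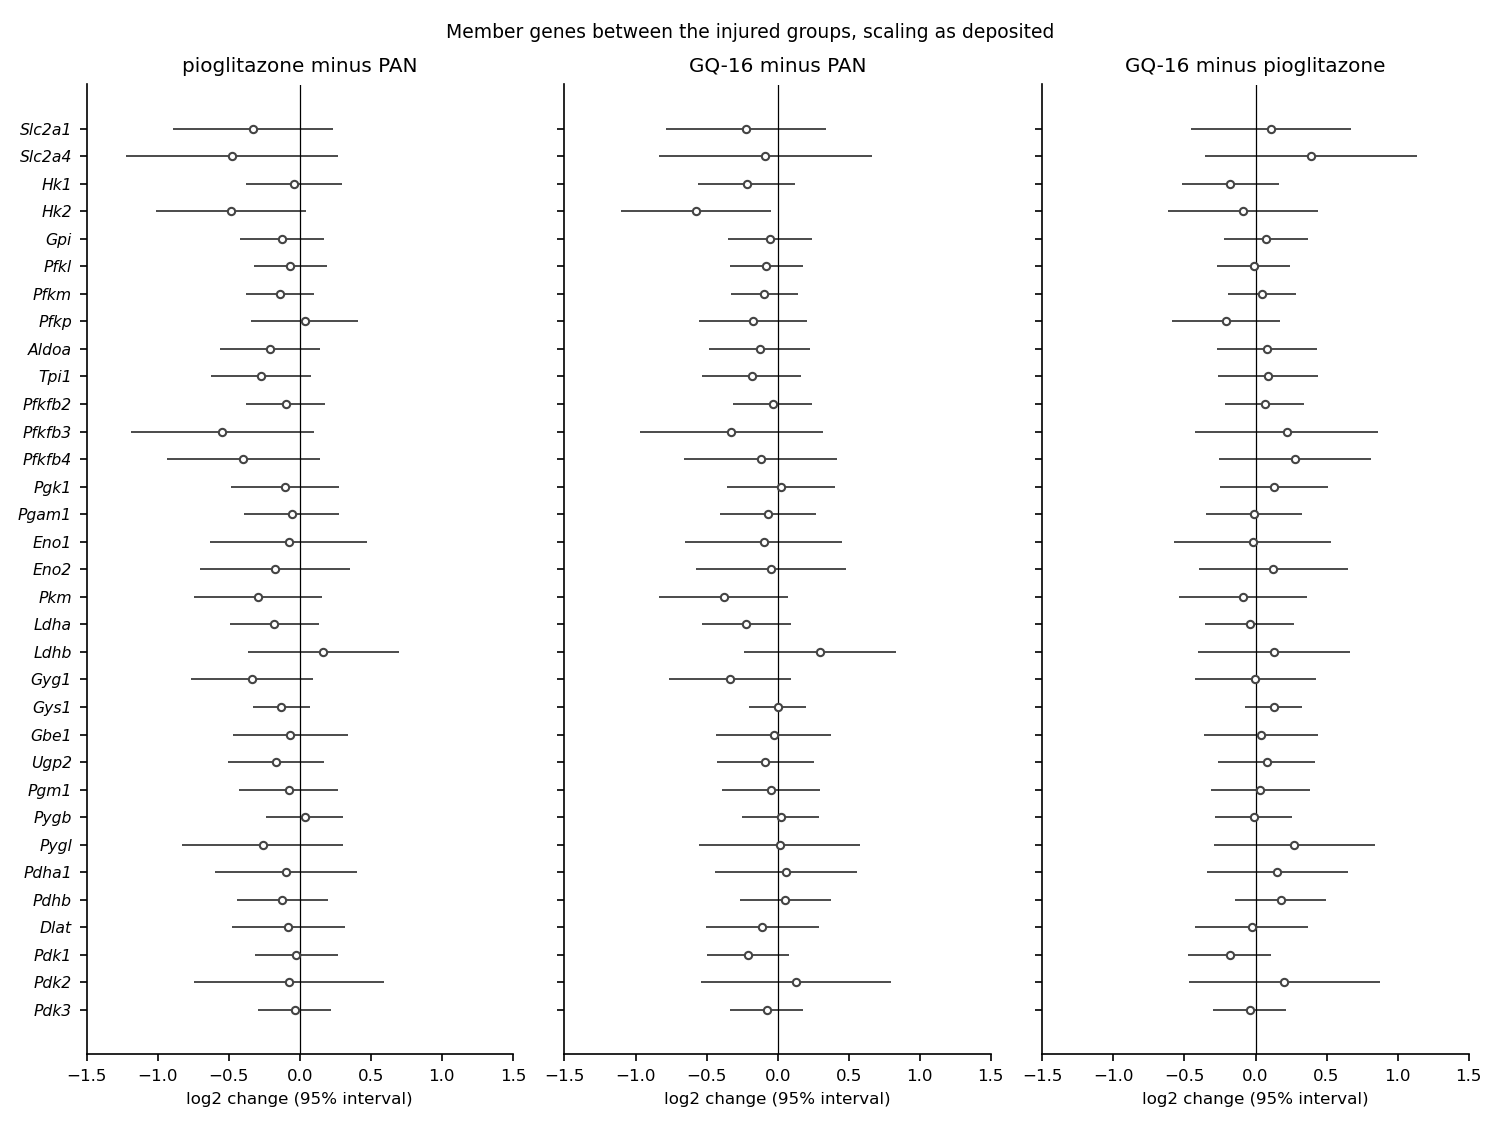
Log2 change of the 33 members for pioglitazone minus PAN, GQ-16 minus PAN and GQ-16 minus pioglitazone, as deposited, with 95% intervals from limma on the log2(CPM + 1) scale. Points are open because 0 members passed the adjusted test, and most intervals cross 0. For Hk2 the interval reaches 0.04 in the first panel and -0.05 in the second.

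GQ-16 was then set against pioglitazone. In this comparison 0 of 33 members were called, beside 0% of all genes, and 0 had an unadjusted limma p under 0.05, beside 5.94% of all genes. The members with the smallest p were Gys1, at 0.13 on a log2 scale (95% interval -0.07 to 0.33), Pdk1, at -0.18 (95% interval -0.47 to 0.11), and Pfkp, at -0.21 (95% interval -0.59 to 0.17). Pfkfb3 differed by 0.22 (95% interval -0.42 to 0.86) and Gyg1 by less than 0.01 (95% interval -0.43 to 0.43). For 32 of 33 members the interval stayed within 1 log2 unit of 0, and the median interval reached 0.38 to either side of its estimate.

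Against control, 0 members were called in either drug group, beside 4.98% of all genes with pioglitazone and 0.151% with GQ-16. These comparisons share the 4 control rats with that of PAN, so the values are given side by side. Gyg1 differed from control by 0.995 in PAN rats, 0.66 after pioglitazone and 0.66 after GQ-16 (limma adjusted p 0.00467, 0.0670 and 0.108). Pfkfb3 differed by 1.27, 0.73 and 0.95 (limma adjusted p 0.0116, 0.142 and 0.113). Hk2 differed by 0.89, 0.40 and 0.31 (limma adjusted p 0.0238, 0.270 and 0.432), and by 0.62, 0.21 and 0.16 with median-ratio scaling. Pygb differed by 0.39, 0.42 and 0.41 (limma adjusted p 0.0418, 0.0656 and 0.111), and by 0.091, 0.21 and 0.24 with median-ratio scaling.

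Pkm differed from control by 0.81, 0.52 and 0.43, Ldha by 0.45, 0.27 and 0.23, and Ldhb by -0.68, -0.51 and -0.38, in the same order of groups. With median-ratio scaling these were 0.51, 0.30 and 0.26 for Pkm, 0.15, 0.051 and 0.052 for Ldha, and -0.98, -0.73 and -0.55 for Ldhb. With pioglitazone Pygb lay above all control rats and Slc2a4 below them, 2 members without overlap beside 14.1% of all genes. With GQ-16 Pfkp, Pkm and Pygb lay above all control rats, beside 6.01% of all genes. These sets depended on the scaling. With median-ratio scaling Slc2a4, Pfkfb2, Ldhb and Gys1 lay below all control rats and Gyg1 above them with pioglitazone, beside 11.8% of all genes. With GQ-16 it was Pfkfb3 alone, above all control rats, beside 11.7% of all genes. Without control replicate 1, which had the highest Pfkfb3 and Gyg1 of the control rats, Pfkfb3, Gyg1 and Pygb were called in both drug groups, beside 12.6% of all genes with pioglitazone and 11.9% with GQ-16.

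Ldhb was 258, 272, 364 and 210.2 CPM with pioglitazone and 402, 293, 281 and 236 CPM with GQ-16, so that 1 rat of each group reached the control range. Pkm was 244, 239, 167 and 293 CPM and 187, 194, 214 and 286 CPM in these groups, all between the control and PAN means, with pioglitazone replicate 3 inside the control range.

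Other members had the following levels, as mean and SD of 4 rats with pioglitazone and then with GQ-16. Slc2a4 was 4.26 ± 1.53 and 5.97 ± 2.38 CPM, Hk1 was 124 ± 20.9 and 109 ± 8.87 CPM, and Slc2a1 was 9.73 ± 3.26 and 10.5 ± 2.98 CPM. Gpi was 249 ± 33.6 and 262 ± 33.8 CPM, Aldoa was 684 ± 106 and 723 ± 108 CPM, and Eno1 was 580 ± 184 and 567 ± 155 CPM. Pdk2 was 122 ± 49.4 and 136 ± 33.0 CPM, Pdha1 was 201 ± 41.7 and 229 ± 66.8 CPM, and Gys1 was 16.1 ± 1.16 and 17.6 ± 1.29 CPM. Among the phosphofructokinase and PFK-2 genes, Pfkl was 97.4 ± 5.82 and 96.5 ± 5.80 CPM, Pfkm was 62.6 ± 6.07 and 64.8 ± 7.27 CPM, Pfkfb2 was 18.4 ± 2.16 and 19.3 ± 2.91 CPM, and Pfkfb4 was 6.49 ± 3.40 and 7.56 ± 1.47 CPM. Of the glycogen genes, Gbe1 was 27.9 ± 4.99 and 29.0 ± 6.75 CPM, Ugp2 was 54.9 ± 6.33 and 58.9 ± 12.5 CPM, and Pygl was 42.1 ± 11.3 and 51.3 ± 14.03 CPM. These means differ by less than the larger of both SDs between the drugs, apart from Gys1.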

How the data were processed

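Glomerular poly(A) RNA was sequenced from 16 rats in 4 groups of 4. The deposited table holds log2 CPM values made by the authors for 13222 genes. The submitters' processing notes name HISAT2, featureCounts, Subread and limma and the build Rnor_6.0, with no role or version. The values have the form of counts plus 0.5 over library totals plus 1, and undoing this gave whole reads, within 0.01 read, for 100% of the values.

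Comparisons between groups used log2(CPM + 1) and limma 3.58.1 (R 4.3.3), with a variance trend, 1 mean per group, all 16 libraries and two-sided p-values adjusted by the Benjamini-Hochberg method over all genes. The added 1 CPM understates changes of low genes. Changed means an adjusted p-value under 0.05. Family ratios were compared by two-sided exact permutation tests over rats. The labels name separate samples but no litter, batch or pairing, and replicate numbers only name rats.

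The members, the 5 pathway lists and the 9 marker lists were chosen with earlier results of these data known. A further pathway list is not reported here. Every member is named. Values of single rats are given for members called under either scaling, for the member with the smallest p in role groups without such a call, and for some chosen after their values were seen (Hk1, Pfkp and Pdk1). Of each pathway list the 3 genes with the smallest p were eligible, and Pck1, G6pc3 and Bnip3l, which were not called, had limma adjusted p-values of 0.222, 0.288 and 0.0609. On simulated data for PAN minus control with 13222 genes, 65% of 100 genes with a log2 change of 1, 9% of 100 with 0.5, and 5 of 13022 unchanged genes were called. These shares hold for that number of changed genes only. A floor of 3 reads was used. Alternatives were median-ratio scaling, a total without mitochondrial genes, quantile normalization, a pseudocount of 0.1 CPM, a mean of at least 10 CPM, voom with median-ratio scaling, only the groups compared, the title number or the podocyte score as a covariate, and leaving out each rat. Sequences came from RefSeq, build GRCr8.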

Additional observations from a re-analysis of the deposited data

Results flagged for a closer look

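Of 154 groups of 4 rats examined (each member in each group, and each family ratio in control and PAN), 5 held a rat whose gap to the nearest other rat, divided by the range of the 4, was above Dixon's 95% limit, where chance gives about 7.7. Control replicate 4 was high in Hk1, at a log2 CPM of 6.69 beside 6.48 to 6.501 in the other control rats. Pioglitazone replicate 1 was low in Aldoa, at 9.04 beside 9.51 to 9.54. GQ-16 replicate 2 was low in Pygl, at 4.93 beside 5.81 to 5.94, and this rat had the highest mitochondrial share of its group, 31.4%. PAN replicate 4 was high in Pdha1, at 8.08 beside 7.55 to 7.64. GQ-16 replicate 1 was low in Pdk1, at 3.32 beside 3.52 to 3.53.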

How the results depend on the processing

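The count of 6 members changed between PAN and control moved to 3 with median-ratio scaling, 3 with a total without mitochondrial genes, 4 with quantile normalization (2 of them lower, Ldhb and Gys1), 2 with voom and median-ratio scaling together, and 3 with only the groups compared, where 8.63%, 8.25%, 8.59%, 7.92% and 11.9% of all genes were called. It was 1 with the podocyte score as a covariate and 0 with the title number as a covariate. Alternatives added after the data were seen were the title number with median-ratio scaling, and only the rats with title numbers under 25, where the single PAN rat is assumed to vary like the others; both gave 0, beside 2.88% and 0.597% of all genes. With each rat left out it ran from 1 to 9, with the highest count without PAN replicate 4, where 24.4% of all genes were called. Against control, pioglitazone gave 1 member with quantile normalization, Gys1, beside 2.90% of all genes. With a rat left out pioglitazone and GQ-16 gave 0 to 3 each, with 3 without control replicate 1, where 12.6% and 11.9% of all genes were called. Gyg1 was called in 8 of 10 alternatives with all rats. Pfkfb3 and Gyg1 were above 0 in every alternative between PAN and control.

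Signs turned for some values that were not called as deposited. Pdha1 in PAN against control was -0.072 with median-ratio scaling, -0.083 without mitochondrial genes, -0.069 with quantile normalization, -0.064 with voom and median-ratio scaling, -0.20 with the podocyte score and -0.00259 with the title number and median-ratio scaling. With the same pair of choices Slc2a1 was -0.069 and Pfkp -0.063, and Pfkfb3 between GQ-16 and PAN was 0.0105. With title numbers under 25 only, Pfkp was -0.16, Ldhb 0.027 and Pdk2 0.33. Gyg1 between the drugs was 0.041 with median-ratio scaling, 0.042 without mitochondrial genes, 0.016 with quantile normalization, 0.059 with voom and median-ratio scaling, and 0.041 with the title number and median-ratio scaling, and -0.11 to 0.16 with a rat left out. Hk2 with GQ-16 against control was -0.045 with the podocyte score. With a rat left out, Pfkfb3 between the drugs ran from -0.022 to 0.40, the Pfkm to Pfkl ratio from -0.064 to 0.095 and the Pygl to Pygb ratio from -0.35 to 0.017. The cause was not tested.

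No paired analysis was possible because the labels give no replicate number shared between groups. The title number of 25 or higher and the PAN group cannot be told apart for 3 of the 4 PAN rats. The lowest read number of a member in a library was 22, and the share of counting error in the spread between rats was not tested.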
